A study of Macaca mulatta with 24 samples.

Results

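The HD animals were the 4 rhesus macaques that the sample labels class as heavy drinkers and not as very heavy drinkers (VHD). They were compared with the 8 Control animals, so 12 of the 24 animals of the series entered the comparison. The rule used the group label only and no expression value. The tissue was the nucleus accumbens core, the ventral part of the striatum that takes part in reward and reinforcement, dissected as a small disc from a frozen coronal block, and polyA RNA-Seq gave 1 library per animal. All animals were unrelated adult males. The HD animals first learned to drink 4% (w/v) ethanol under schedule-induced polydipsia, a procedure in which spaced food pellets provoke drinking, and then had 12 months of open access to ethanol and water for 22 h each day. Controls lived in the same rooms under the same schedules with water on both spouts and received a 10% maltose dextrin solution to match the calories. No abstinence was imposed before necropsy, but the paper reports only trace or undetected ethanol in blood at sacrifice. The contrast is thus of animals still in a drinking routine with animals given no ethanol.

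Over the open access period, HD animal 1 drank a mean of 2.74 g/kg of ethanol each day. The mean was 3.09 g/kg in HD animal 2, 2.82 g/kg in HD animal 3 and 3.01 g/kg in HD animal 4. The lowest intake among the 4 VHD animals was also 3.09 g/kg, so mean intake alone did not separate these groups. HD animals 1 and 2 came from cohort 5 and HD animals 3 and 4 from cohort 7a. Controls 1, 2 and 3 belonged to cohort 5, controls 7 and 8 to cohort 7a, and controls 4, 5 and 6 to cohort 7b, which held no HD animal.

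Most neurons of this region are medium spiny neurons, GABAergic projection cells that carry either the dopamine D1 receptor (DRD1) with dynorphin and substance P or the D2 receptor (DRD2) with enkephalin. They receive glutamatergic input from cortex, thalamus, hippocampus and amygdala, and dopamine from the midbrain. A block of tissue also holds interneurons, astrocytes, oligodendrocytes and microglia. In RNA from such a block, fewer cells of a type and less RNA per cell cannot be told apart.

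Gene levels are given as TPM (transcripts of a gene in 1e+06 transcripts), which adjusts for gene length and library size, and the file keeps no read depth. Differences are in log2(TPM + 1), HD minus Control, which understates the change of low genes. They come from limma, fitted to the 9197 genes whose mean over the 24 animals reached 10 TPM, and adjusted p-values follow Benjamini and Hochberg over all 9197. A gene passed at an adjusted p under 0.05. Each library came from a different animal, so the spread is between animals.

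The HD libraries resembled each other more than the Control libraries did. The 6 pairs of HD animals correlated at 0.973 to 0.985 over the genes tested, and the 28 pairs of controls at 0.821 to 0.9895. The median SD of a gene was 0.14 log2 units among HD animals and 0.28 among controls. On the first principal component, which held 43.9% of the variance over the 24 animals, the HD animals lay between -21.5 and -14.4 and the controls between -30.1 and 43.2. Controls 8 and 6, at 43.2 and 39.6, stood apart from the other 6, whose highest score was 5.77, and the main gene and list differences are also given without both. Neither this score nor the share of TPM in the 10 highest genes separated the groups (exact permutation tests, two-sided, 3 measures, adjusted p = 0.276 and 0.299). Each HD library held 13255 to 13411 genes at 1 TPM or more and each Control library 13351 to 13878, a mean difference of -213 genes (exact permutation p = 0.0465, adjusted p = 0.139).

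The tissue label was checked against marker genes. Every one of the 14 medium spiny neuron markers was present, and their summed level was 10013 to 11644 TPM in HD animals and 875 to 12847 TPM in controls. DRD1 was at 231, 207, 203 and 171 TPM in HD animals 1 to 4, and at 8.14, 129 and 274 TPM as the lowest, median and highest control. PPP1R1B, which encodes DARPP-32, the dopamine-regulated phosphatase inhibitor of these neurons, was at 3659, 3152, 3625 and 3797 TPM in HD animals. All HD animals were above the Control median for both genes, and control 6 was the lowest of the 12 for DRD1. Control 6 was at 875 TPM for the medium spiny neuron markers but at 9536 TPM for the pan-neuronal markers, the highest control sum. Its striatal interneuron markers summed to 1691 TPM, within the Control range of 1102 to 2026 TPM. Whether its block sampled the same tissue as the others was not tested. SLC17A7, the vesicular glutamate transporter of cortical neurons, was uneven: it was at 4.69, 84.9, 0.866 and 186 TPM in HD animals and reached 348 TPM in control 2. No gene of the marker lists for other cell types was at 0 in all 12 animals.

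**Figure D1:**
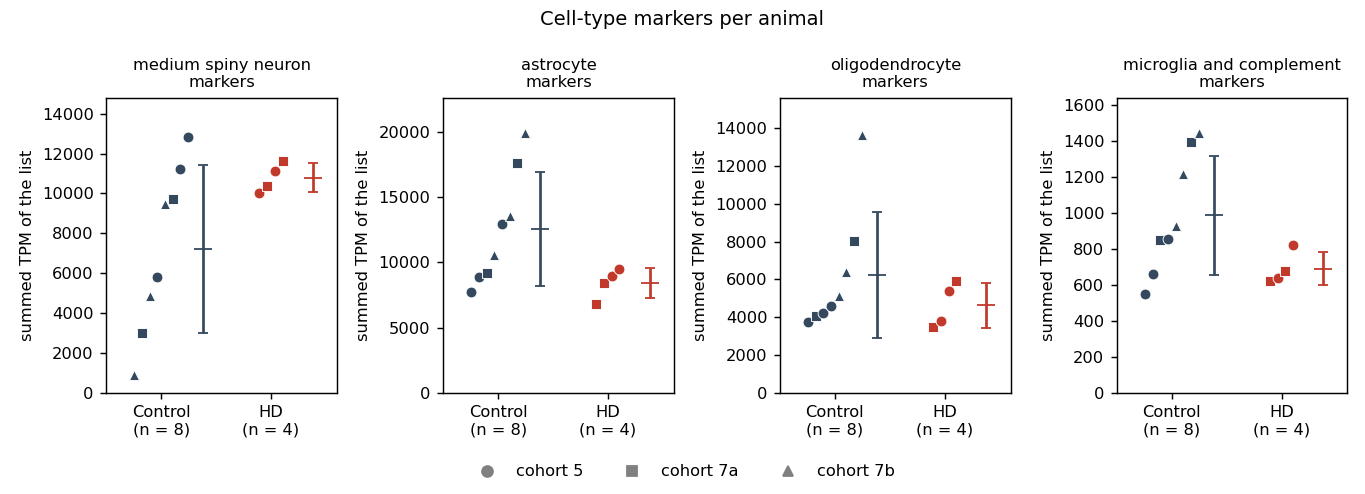
Summed TPM of marker lists for medium spiny neurons (14 genes), astrocytes (16), oligodendrocytes (22) and microglia with complement (19), with 1 point per animal, shaped by cohort; the bar gives the mean and SD of each group. The 4 HD animals lie between 10013 and 11644 TPM for the neuron markers and spread from 3456 to 5904 TPM for the oligodendrocyte markers. Control 6 lies at 875 TPM for the neuron markers and at 13645 TPM for the oligodendrocyte markers.

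No gene differed between HD animals and controls at an adjusted p under 0.05 (0 of 9197 genes, 0%). The smallest adjusted p was 0.619. At an unadjusted p under 0.05, 275 genes were higher in HD animals (2.99% of those tested) and 345 were lower (3.75%). Since none passed, single genes below are described by their values. Every gene named has a limma adjusted p of at least 0.619 in this comparison unless another is given, except LRP5, fitted with lower genes (0.582). The balance of direction depended on scaling: with trimmed-mean (TMM) rescaling of the TPM, 691 genes were higher and 278 lower. Over all genes tested, 53.4% had a higher mean in HD animals and 46.6% a lower one, with a median difference of 0.02 log2 units.

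All 4 HD animals lay above all 8 controls for 16 genes (0.174%) and below all 8 for 37 genes (0.402%). Several of the genes with the smallest p-values were among them. With groups this small and this many genes tested, some genes separate 4 animals from 8 completely by chance alone. Whether either count exceeded a chance rate was not tested. Complete separation of a gene is thus given below as a description of its values and not as evidence of a difference. FAM110A, which encodes a protein of the centrosome and spindle poles, had the smallest p among genes higher in HD animals. Its level was 22.3, 25.8, 28.8 and 24.3 TPM in HD animals 1 to 4. The lowest, median and highest controls were at 8.55, 12.7 and 21.9 TPM. HD animal 1 lay just above control 7, the highest control, and the other 7 controls reached 17.5 TPM. The difference was 0.92 ± 0.23 log2 units (SE).

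DARC, now ACKR1, encodes a decoy receptor that binds inflammatory chemokines and sits on venular endothelium and on some neurons. Its level was 19.9, 25.6, 19.1 and 23.7 TPM in HD animals 1 to 4, against 3.59, 9.54 and 18.0 TPM in the lowest, median and highest control. No HD animal overlapped with a control, although control 1 came close to HD animal 3. The difference for DARC was 1.23 ± 0.32 log2 units. Other endothelial genes did not separate the groups: the summed level of the 15 endothelial markers in the table was 362 to 389 TPM in HD animals and 293 to 413 TPM in controls.

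HYI encodes a putative hydroxypyruvate isomerase. It was at 80.3, 83.1, 93.9 and 87.7 TPM in HD animals and at 56.1, 58.8 and 88.8 TPM in the lowest, median and highest control. Only control 4, at 88.8 TPM, reached the HD range, and it came from cohort 7b. The HYI difference was 0.44 ± 0.12 log2 units. It was 0.55 with HD animals and controls of cohorts 5 and 7a alone and a cohort term (limma adjusted p = 0.808).

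C3orf22, an open reading frame with no well-described function, had the largest difference among these genes, 1.74 ± 0.56 log2 units. It was at 29.2, 30.2, 37.3 and 19.7 TPM in HD animals and from 0 to 22.8 TPM in controls, so HD animal 4 fell below control 7. Control 6 was at 0, and the difference was 1.07 without controls 6 and 8. The remaining genes with small p-values in this direction had smaller differences. They were WBSCR17 (now GALNT17, an enzyme family member of O-glycosylation, 0.77), MAP1S (a microtubule-associated protein, 0.64), TUBA8 (an alpha-tubulin, 0.60), TMEM177 (a factor in cytochrome c oxidase assembly, 0.57), C12orf44 (now ATG101, a subunit of the complex that starts autophagy, 0.33) and MRPL4 (a mitochondrial ribosomal protein, 0.33). Each of these 6 genes had at least 1 control inside the HD range or above it.

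**Figure D2:**
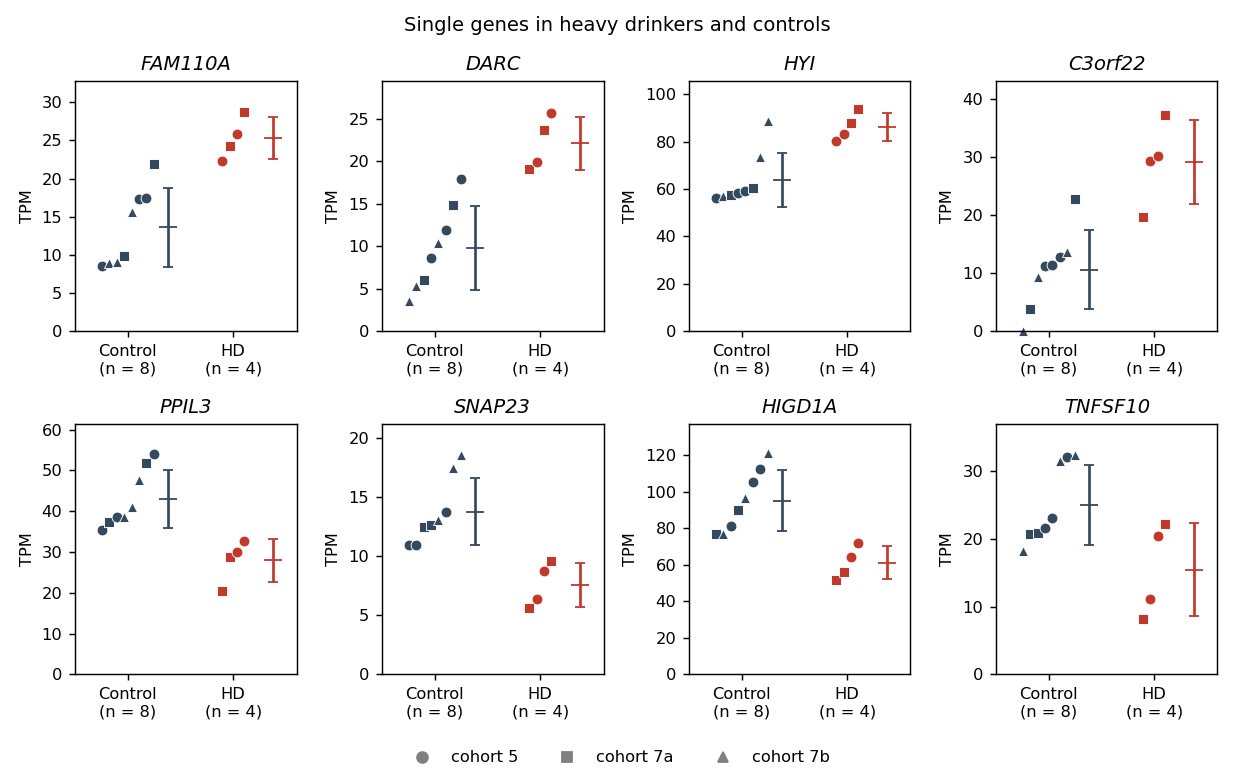
TPM of 8 genes in each control (n = 8) and HD animal (n = 4), shaped by cohort, with the mean and SD of each group at the right of its points; each y axis is linear and starts at 0. For FAM110A and DARC the 4 HD animals lie above the 8 controls and for PPIL3, SNAP23 and HIGD1A below them, while HYI, C3orf22 and TNFSF10 overlap.

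Among genes lower in HD animals, PPIL3, a cyclophilin-type peptidyl-prolyl isomerase, had the smallest p. It was at 32.7, 30.0, 28.7 and 20.4 TPM in HD animals 1 to 4 and at 35.5, 39.8 and 54.0 TPM in the lowest, median and highest control. All HD animals were below all controls, and HD animal 4 was the furthest. The difference was -0.61 ± 0.14 log2 units.

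SNAP23 encodes a SNARE protein of exocytosis and receptor trafficking that is used in many cell types. It was at 8.74, 6.39, 5.61 and 9.54 TPM in HD animals and at 10.9, 12.9 and 18.6 TPM in the lowest, median and highest control. The groups did not overlap, and the difference was -0.79 ± 0.19 log2 units. HIGD1A, a mitochondrial inner membrane protein induced by hypoxia, was at 72.0, 64.4, 56.2 and 51.6 TPM in HD animals and at 76.8, 93.3 and 121 TPM in the lowest, median and highest control. Its groups did not overlap either, with a difference of -0.62 ± 0.17 log2 units.

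HNRNPA1, a splicing factor, was lower by a small and even amount: 215 to 261 TPM in HD animals and 269 to 325 TPM in controls, a difference of -0.32. It has many processed copies in primate genomes, and the authors kept only reads that aligned to a single place, so its value is uncertain. TOM1L1, an endosomal sorting adaptor (-0.69), FAM149A (-0.32) and the EF-hand proteins EFCAB2 (-0.59) and EFCAB14 (-0.41) also had every HD animal below every control. GPR137B, a lysosomal membrane protein (-0.53), and MRVI1, now IRAG1, a target of cGMP-dependent kinase (-0.72), overlapped. In GPR137B a single animal, HD animal 1 at 68.2 TPM, lay within the Control range of 60.5 to 78.3 TPM and the other 3 were between 36.5 and 47.6 TPM.

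These 20 genes were also fitted with cell marker levels and cohort. With the medium spiny neuron marker level as a covariate, the FAM110A difference was 0.61, the DARC difference 0.86, the PPIL3 difference -0.51 and the SNAP23 difference -0.58. With cohort as a covariate they were 0.77, 1.08, -0.56 and -0.63, and without controls 6 and 8 they were 0.79, 1.04, -0.57 and -0.73. Each kept its direction and an unadjusted p under 0.05 in every one of the 12 fits that left out 1 animal. All 20 genes had been picked for small p-values over these same animals. Staying under 0.05 without 1 animal or with a covariate was thus favoured in advance and is no separate evidence. With the same neuron covariate C3orf22 was at 0.78, WBSCR17 at 0.36 and MAP1S at 0.29, and of the 20 genes only MAP1S was then not at an unadjusted p under 0.05. With the astrocyte marker level as a covariate, FAM110A was at 0.56, DARC at 0.82, PPIL3 at -0.44 and SNAP23 at -0.48. In that fit C3orf22, WBSCR17, C12orf44, TUBA8, MRPL4 and MAP1S were no longer at an unadjusted p under 0.05, and the other 14 of the 20 were.

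The widest differences by gene group were in genes of the medium spiny neuron. All 14 markers had a higher mean in HD animals, with a median of 0.99 log2 units, and 2 of them, DRD2 and GPR6, were at an unadjusted p under 0.05. None passed after adjustment. DRD2, which carries the indirect-pathway response to dopamine, was at 358, 371, 361 and 333 TPM in HD animals and at 44.1, 194 and 377 TPM in the lowest, median and highest control. Controls 1 and 3 lay within or above the HD range, and controls 2, 5, 6 and 8 were at 140.0, 100.3, 44.1 and 92.0 TPM. The DRD2 difference was 1.09 ± 0.44 (SE) and was 0.63 without controls 6 and 8. GPR6, an orphan receptor of D2-type medium spiny neurons, had a difference of 1.31, with HD animals between 171 and 229 TPM and controls between 7.63 and 217 TPM. Without controls 6 and 8 it was 0.58.

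The other striatal lists had mostly higher means too. Of 22 genes for dopamine receptors and striatal cAMP signalling, 19 had a higher mean, with a median of 0.84. Of 10 striatal transcription factors 9 did, with a median of 0.68, and BCL11B, which directs medium spiny neuron differentiation, was 0.80 higher, and 0.32 higher without controls 6 and 8. These medians depended on controls 6 and 8, the lowest for the marker sum. Without controls 6 and 8 the median was 0.31 for the medium spiny neuron markers, 0.28 for the dopamine and cAMP genes and 0.25 for the transcription factors. With the marker level as a covariate the medians of the latter lists were -0.0026 and 0.04, but 9 of the 22 dopamine and cAMP genes and 2 of the 10 transcription factors are themselves among the markers, so this fit partly removes their own level. The 13 dopamine and cAMP genes that are not markers had a median of 0.36, which was 0.09 without controls 6 and 8 and -0.05 with the covariate. The 8 other transcription factors had medians of 0.60, 0.22 and 0.06 in the same order.

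Opioid genes were mixed. OPRL1, the nociceptin receptor, was at 56.4, 60.7, 82.2 and 75.8 TPM in HD animals and at 29.7, 48.0 and 59.3 TPM in the lowest, median and highest control, a difference of 0.58. OPRK1, the kappa receptor that binds dynorphin, was between 25.6 and 38.3 TPM in HD animals and between 4.55 and 39.0 TPM in controls, a difference of 0.97. Enkephalin (PENK, 1.02) and dynorphin (PDYN, 0.92) also had higher means, and neurotensin (NTS, -1.52) and cholecystokinin (CCK, -1.11) lower ones, none at an unadjusted p under 0.05. In the list of 14 neuropeptides and receptors, 9 had a higher mean and 5 a lower one, with a median of 0.33 that was 0.03 without controls 6 and 8. In that fit OPRL1 was at 0.47 and OPRK1 at 0.52.

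The study picked its lists of glutamatergic and GABAergic synapse genes as lower than controls in a pool of HD and VHD animals. They were chosen on these samples and are no independent evidence of a direction. The glutamatergic list had 33 of 33 tested members with a higher mean in HD animals, a median of 0.39 and 3 at an unadjusted p under 0.05. The GABAergic list had 11 of 11 with a higher mean and a median of 0.55. Against a background of 53.4% of all genes with a higher mean, both counts were one-sided. In VHD animals alone the medians against the same controls were -0.53 and -0.68. The HD medians were 0.09 and 0.19 without controls 6 and 8, and 0.04 for both with the neuron markers as a covariate.

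Receptor and scaffold genes show the values behind these medians. GRIN1, the obligatory NMDA receptor subunit, was at 565, 622, 751 and 737 TPM in HD animals and at 245, 467 and 675 TPM in the lowest, median and highest control. HD animals 3 and 4 exceeded every control, and HD animals 1 and 2 did not. The GRIN1 difference was 0.63 ± 0.28 (SE), and 0.36 without controls 6 and 8. CACNG8, an auxiliary subunit of AMPA receptors, differed by 0.41, DLG3, the scaffold SAP102, by 0.57, and PRRT1, an AMPA receptor partner, by 0.51. GRM4, a presynaptic group III receptor, differed by 0.78. Of the receptor genes GRIA3, GRM5 and GRM7, the differences were 0.59, 0.45 and 0.46, none at an unadjusted p under 0.05. Without controls 6 and 8, DLG3 was at 0.34, GRM4 at 0.39, GRIA3 at 0.19 and GRM5 at 0.09.

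For inhibitory transmission, GABRD, the delta subunit of extrasynaptic GABA-A receptors, was at 226, 216, 320.5 and 261 TPM in HD animals and at 14.5, 161 and 255 TPM in the lowest, median and highest control. The GABRD difference was 1.07. SLC32A1, the vesicular GABA transporter, was 0.62 higher and GABBR1, a GABA-B subunit, 0.30 higher, neither at an unadjusted p under 0.05. ATP2B2, a plasma membrane calcium pump, was 0.68 higher and NPTN, a synaptic adhesion molecule, 0.60 higher. Among 21 potassium channel genes 17 had a higher mean, and KCNJ4, the inward rectifier Kir2.3, was 1.06 higher. The ranges of all 6 of these genes overlapped between the groups. Without controls 6 and 8 the differences were 0.45 for GABRD, 0.39 for SLC32A1, 0.14 for GABBR1, 0.36 for ATP2B2, 0.24 for NPTN and 0.53 for KCNJ4.

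A set of 6 genes that earlier methylation work in these monkeys had linked to drinking was measured, and GPR39 averaged 0.822 TPM, too low to test. JAKMIP1, which ties GABA-B receptors to microtubules, was at 179, 184, 246 and 188 TPM in HD animals and at 72.1, 159 and 194 TPM in the lowest, median and highest control. HD animal 3 alone lay above the controls, and the JAKMIP1 difference was 0.48, or 0.27 without controls 6 and 8. NBEA, KIRREL3 and ARHGEF7 differed by 0.45, 0.34 and 0.10, none at an unadjusted p under 0.05. LRP5, a Wnt co-receptor tested among genes of at least 1 TPM, was at 7.12 to 8.25 TPM in HD animals and 8.07 to 16.4 TPM in controls, a difference of -0.30.

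Glial markers were lower on average in HD animals. All 16 astrocyte markers had a lower mean, against 46.6% of all genes, with a median of -0.35 and 5 at an unadjusted p under 0.05. AQP4, the astrocyte water channel, was at 200.6, 137, 119.7 and 149.9 TPM in HD animals and at 180.3, 233 and 361 TPM in the lowest, median and highest control, so only HD animal 1 reached the controls. The AQP4 difference was -0.73 ± 0.24 (SE), and -0.66 without controls 6 and 8. NDRG2, another astrocyte gene, was between 964 and 1632 TPM in HD animals and between 1432 and 3768 TPM in controls, a difference of -0.70.

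The astrocyte median was -0.31 without controls 6 and 8 and -0.13 with the neuron markers as a covariate. Summed over its 16 genes, the astrocyte level was 6832 to 9449 TPM in HD animals and 7747 to 19876 TPM in controls, so that the HD animals covered the low end of the Control range. Microglia and complement genes were alike, 14 of 14 with a lower mean and a median of -0.39, which was -0.25 without controls 6 and 8. CD74, an antigen presentation chaperone, was at 67.5 to 107 TPM in HD animals and 72.9 to 255 TPM in controls, a difference of -0.72 that was -0.46 without controls 6 and 8. Their summed level was 620.4 to 820.02 TPM in HD animals and 549.6 to 1444 TPM in controls.

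Oligodendrocyte markers also had a lower mean in 22 of 22 genes, with a median of -0.28, but this rested on control 6. Without it the median was -0.09, and 15 of the 22 were lower. ASPA, the aspartoacylase of oligodendrocytes, was at 51.6 TPM in control 6 and between 14.9 and 31.5 TPM in the other controls, against 10.1 to 22.3 TPM in HD animals. Endothelial genes were near 0, with a median of 0.07 over 7 genes. CD3E and CD3D, subunits of the T cell receptor complex, differed by 0.94 and 1.15, and both ranges overlapped. They differed by 0.48 and 0.54 without controls 6 and 8.

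Interferon-stimulated genes had a lower mean in 15 of 15 members, with a median of -0.36 and 4 at an unadjusted p under 0.05. IFI27 was at 33.4, 25.1, 39.3 and 56.4 TPM in HD animals and at 38.8, 59.0 and 83.9 TPM in the lowest, median and highest control. HD animals 1 and 2 were below every control and HD animals 3 and 4 were not. IRF9, the DNA-binding part of the interferon-activated ISGF3 complex, was at 11.7 to 18.7 TPM in HD animals and 18.0 to 49.0 TPM in controls, a difference of -0.72. IFIT3 (-0.80) and ISG15 (-1.19), an antiviral protein and a ubiquitin-like modifier, were the others. The list median was -0.30 without controls 6 and 8 and -0.22 with the neuron markers as a covariate. Astrocyte and microglia markers were lower beside it, and with the astrocyte marker level as a covariate it was -0.13. Their part in the interferon result was not tested further.

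TNFSF10, the death ligand TRAIL, was the member of the NF-kappaB and death receptor list with the smallest p. It was at 20.4, 11.1, 8.18 and 22.2 TPM in HD animals and at 18.2, 22.4 and 32.4 TPM in the lowest, median and highest control. HD animals 2 and 3 were below every control and HD animals 1 and 4 were within the range. The difference was -0.73 ± 0.23 (SE), -0.76 with the neuron markers as a covariate and -0.84 without controls 6 and 8. CFLAR, an inhibitor of caspase-8 activation, differed by -0.46, and CHUK, the kinase IKK-alpha, by -0.32. The other 12 members had unadjusted p-values above 0.05, and the list median was -0.10.

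Enzymes that handle ethanol and its products were mostly lower in mean. Of 9 tested, 8 had a lower mean, with a median of -0.30. ALDH3A2, a fatty aldehyde dehydrogenase, was at 38.4, 32.8, 29.9 and 32.9 TPM in HD animals and at 35.3, 44.8 and 53.4 TPM in the lowest, median and highest control. HD animals 2, 3 and 4 were below all controls, and the ALDH3A2 difference was -0.39 ± 0.15 (SE). ACSS1, the mitochondrial acetyl-CoA synthetase that uses acetate, differed by -0.37, catalase (CAT) by -0.46 and ALDH2 by -0.30. Only ALDH3A2 and ACSS1 were at an unadjusted p under 0.05. Without controls 6 and 8 the list median was -0.17, and with the astrocyte marker level as a covariate it was 0.01. Within cohort 5 it was 0.01, and within cohort 7a, which held control 8, it was -0.40. For VHD animals against the same controls it was -0.0047. NQO1, an NRF2-driven antioxidant enzyme, was at 11.3 to 25.8 TPM in HD animals and 22.5 to 54.7 TPM in controls, a difference of -0.81, while the 23 antioxidant genes had a median of -0.11.

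Cytosolic ribosomal proteins were lower in mean in 46 of 47 genes of the large subunit, with a median of -0.26, and in 33 of 33 of the small subunit, with a median of -0.32. Of all genes tested, 46.6% had a lower mean. None of the ribosomal genes was at an unadjusted p under 0.05. The 2 medians were -0.18 and -0.21 without controls 6 and 8, and -0.14 and -0.15 with the neuron markers as a covariate. RPLP0, of the ribosomal stalk, was at 766, 802, 775 and 683 TPM in HD animals and at 670.4, 930 and 1710.2 TPM in the lowest, median and highest control. Control 8 had the highest RPLP0 and controls 1 and 3 were within or below the HD range. The RPLP0 difference was -0.36 ± 0.20 (SE). These proteins have many processed pseudogenes, and their counts are uncertain for that reason. Mitochondrial ribosomal proteins, complex I subunits, proteasome subunits and translation factors had medians of -0.03, -0.05, -0.02 and 0.00.

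The other lists held few genes at an unadjusted p under 0.05. HDAC5, a class II histone deacetylase that neuronal activity moves out of the nucleus, was at 80.2, 81.5, 79.8 and 83.05 TPM in HD animals and at 77.3, 110.3 and 165 TPM in the lowest, median and highest control. Its HD values were nearly equal to each other and overlapped with controls 1 and 3, and the HDAC5 difference was -0.43. KAT2B, a histone acetyltransferase, differed by -0.33. TIMP1, a metalloproteinase inhibitor, differed by -0.92 and the laminin chain LAMB1 by 0.92. CYP46A1, the neuronal enzyme that clears brain cholesterol as 24-hydroxycholesterol, was at 793 to 984 TPM in HD animals and 187 to 919.97 TPM in controls, a difference of 0.75 that was 0.39 without controls 6 and 8. NFIL3, a circadian repressor, differed by 0.62, DAGLB, an enzyme that makes 2-arachidonoylglycerol, by 0.45 and MAP2, a dendritic microtubule protein, by -0.37. MAP2 went against most of its list: of 14 pan-neuronal markers 10 had a higher mean and 4 a lower one. The median of that list was 0.24, and 0.17 without controls 6 and 8. Immediate early genes had 15 of 17 higher means and a median of 0.44, with none at an unadjusted p under 0.05; NR4A1 and FOSB differed by 0.68 and 0.90. The list median was 0.18 without controls 6 and 8. Glucocorticoid, mTOR, endoplasmic reticulum stress and chaperone lists had medians between 0.01 and 0.07.

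**Figure D3:**
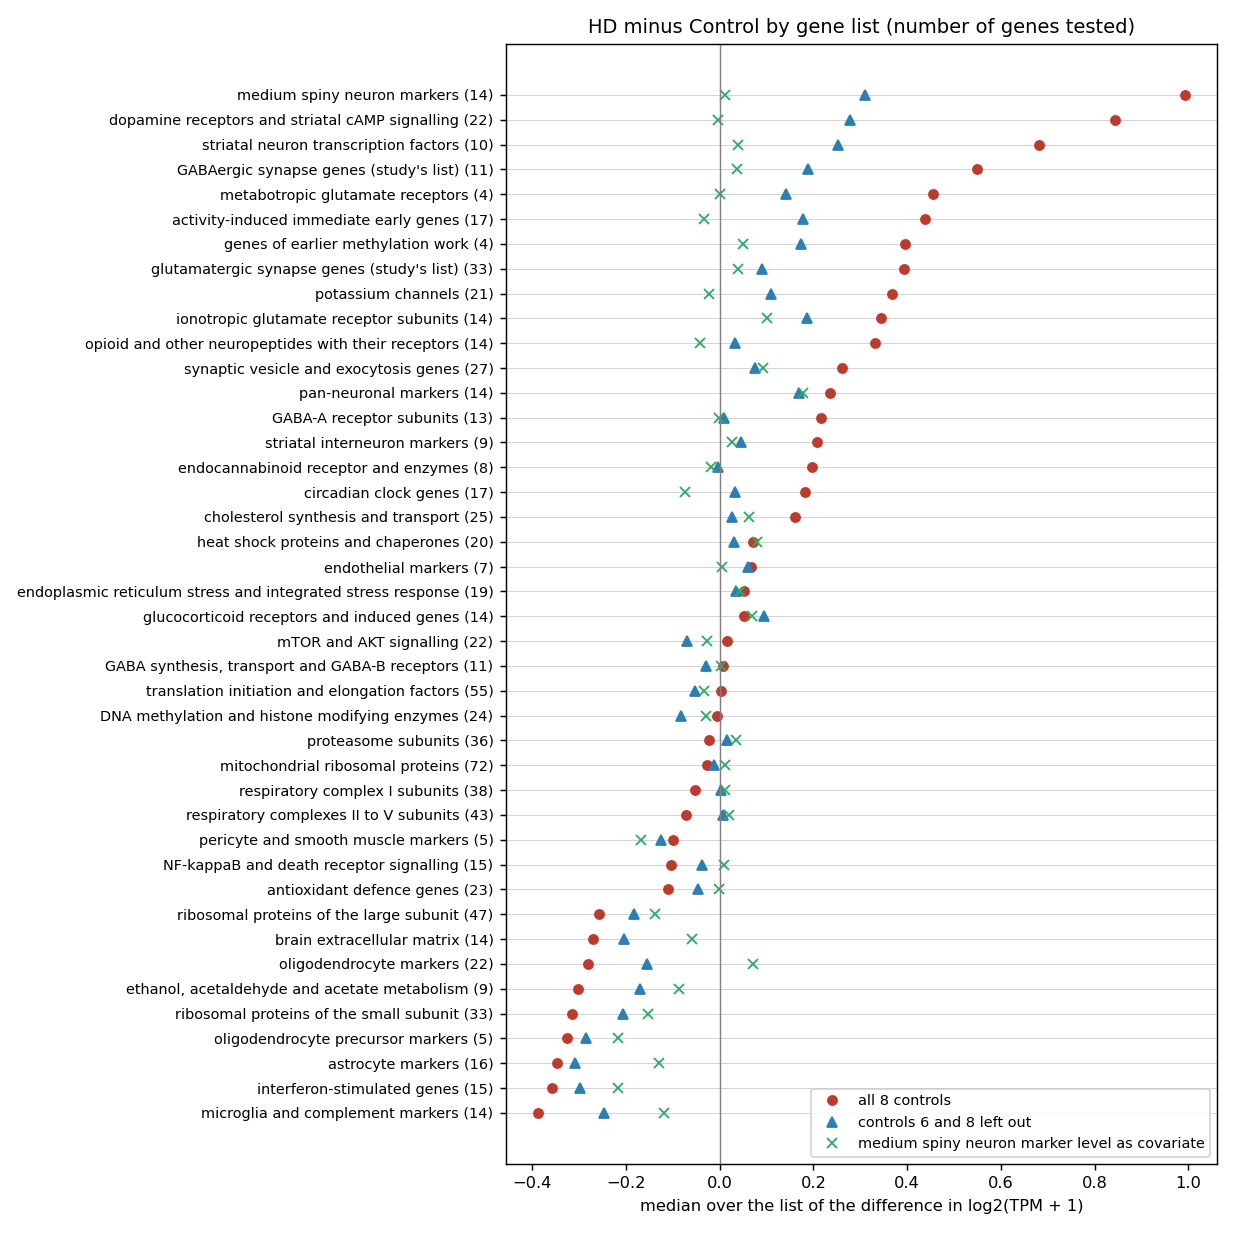
Median difference in log2(TPM + 1), HD minus Control, for each gene list with at least 4 genes tested (the number in brackets), from the fit with all animals, without controls 6 and 8, and with the medium spiny neuron marker level as a covariate. The striatal and synaptic lists lie furthest right with all 8 controls and move towards 0 in the other fits, and interferon, astrocyte and microglia lists stay to the left of 0. In the covariate fit the marker list falls to near 0 by construction, and lists that share its members do so in part.

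HD animals and controls shared cohorts 5 and 7a, and the contrast was taken within each. In cohort 5 (2 HD animals, 3 controls) the median difference was 0.17 for medium spiny neuron markers, 0.02 for the glutamatergic list, 0.00 for astrocyte markers and -0.04 for ribosomal proteins of either subunit. In cohort 7a (2 HD animals, 2 controls) the same medians were 0.90, 0.61, -0.51, and -0.45 and -0.58 for the large and the small subunit. Control 8, which stood apart, was 1 of the 2 controls of cohort 7a, and the controls of that cohort differed from each other, with DRD2 at 302 TPM in control 7 and 92.0 TPM in control 8. For the mean level of the astrocyte, microglia and interferon lists, both HD animals of cohort 7a lay below both controls. For the oligodendrocyte list they did not. In cohort 5 the HD animals overlapped with the controls in each of these lists. The median difference for microglia and complement markers was 0.12 in cohort 5 and -0.73 in cohort 7a. For interferon-stimulated genes it was -0.10 and -0.26.

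Some of the single genes described above were also taken within each cohort. They had been picked for small p-values or by list over the same animals, so their direction in each cohort is no separate evidence. FAM110A differed by 0.76 in cohort 5 and 0.80 in cohort 7a, DARC by 0.83 and 1.08, HYI by 0.49 and 0.61, SNAP23 by -0.60 and -0.70, HIGD1A by -0.53 and -0.62, and TNFSF10 by -0.70 and -0.58. A test of the difference between the cohorts found no gene at an adjusted p under 0.05 (0%, smallest limma adjusted p = 0.893), and 233 genes at an unadjusted p under 0.05 (2.53%). The smallest p-values belonged to NUDT14, a nucleoside diphosphate sugar hydrolase (-0.53 in cohort 5 and 0.93 in cohort 7a), ABO, the blood group transferase (-0.79 and 0.83), and KLK8, the protease neuropsin (-0.91 and 0.97). With 9 animals in this fit, the median SE of a gene's difference between cohorts was 0.31 log2 units.

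**Figure D4:**
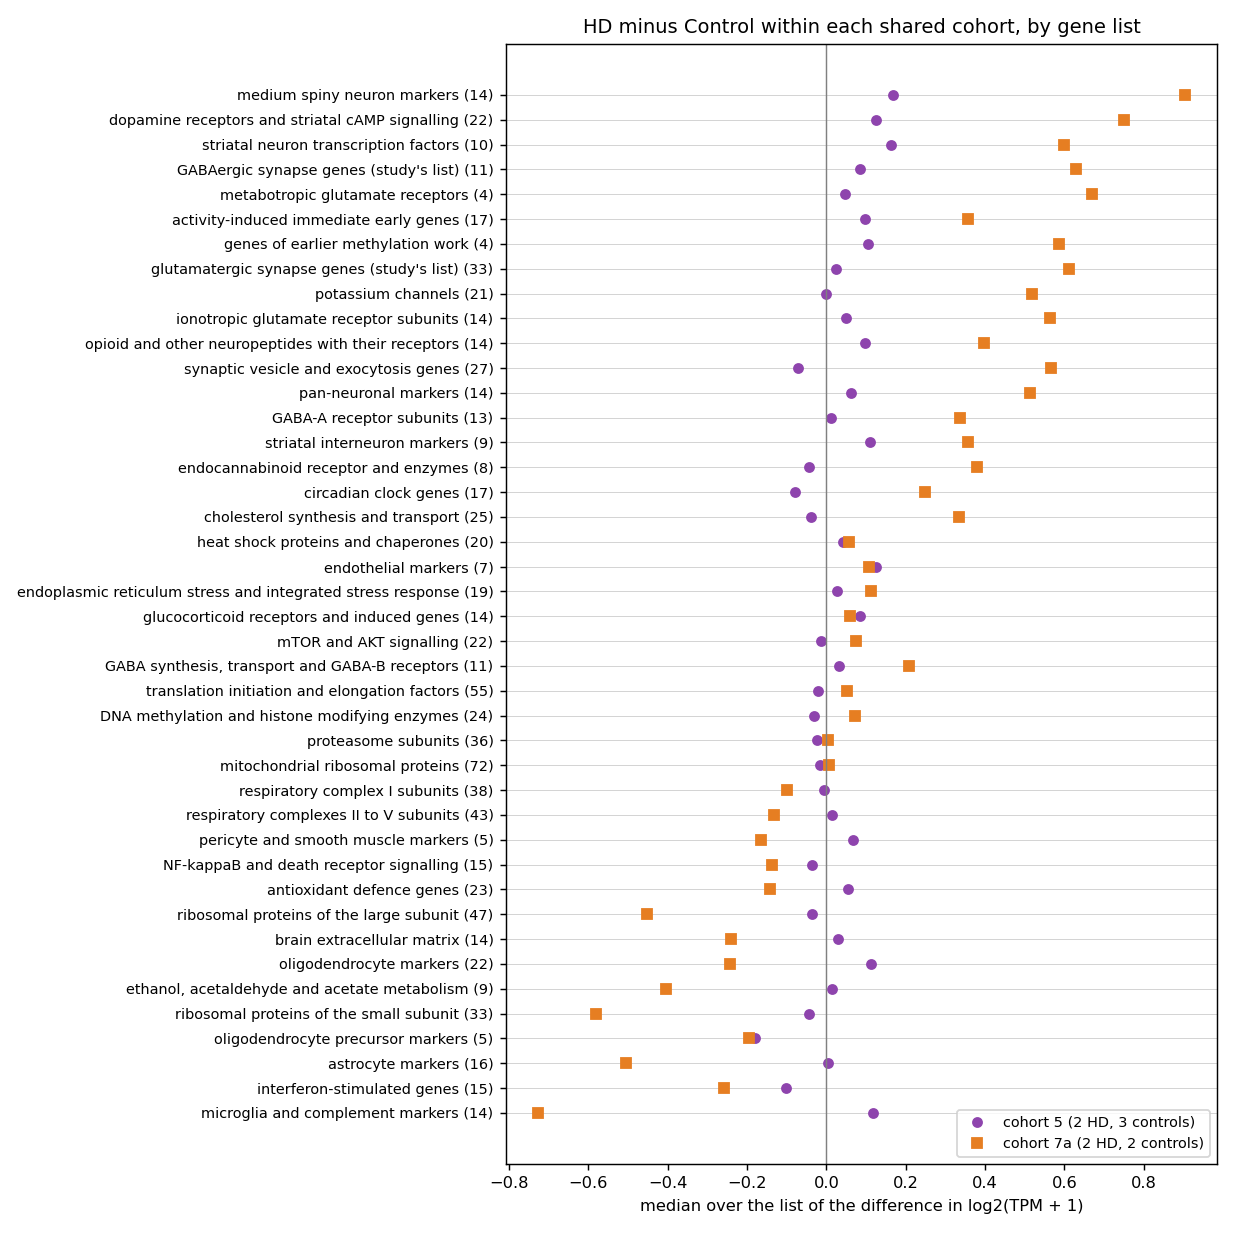
Median difference in log2(TPM + 1), HD minus Control, within cohort 5 (circles) and within cohort 7a (squares) for each gene list with at least 4 genes tested. Cohort 5 medians stay between about -0.2 and 0.2, while cohort 7a medians spread widely, from 0.90 for medium spiny neuron markers to -0.73 for microglia and complement markers.

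The HD animals were set beside the other drinkers to show where they differ. Against the 8 low drinkers (LD), no gene passed (0%, smallest limma adjusted p = 0.982), with 82 genes higher and 63 lower at an unadjusted p under 0.05. The paper's low group combines light and binge drinkers. Of the LD animals 3 came from cohort 7a, 3 from cohort 7b and 2 from cohort 4. Only cohort 7a also held HD animals, so this contrast is partly one between cohorts. DARC was at 22.1 ± 3.10 TPM in HD animals (SD, n = 4) and 8.29 ± 3.12 TPM in LD animals (SD, n = 8), and its limma adjusted p was 0.982. Against the 4 VHD animals, which came from the same cohorts, 1149 genes were higher in HD animals (12.5%) and 269 lower (2.92%) at a limma adjusted p under 0.05. The smallest adjusted p was 0.0425, and the calls were fragile. They were 0 in both directions with TMM rescaling, with genes of at least 1 TPM, and without HD animal 1, 2, 3 or 4 or VHD animal 3 or 4. At an unadjusted p under 0.05 there were 3049 higher and 718 lower.

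DUSP7, a phosphatase of ERK kinases, was at 50.4 ± 5.60 TPM in HD animals and 28.6 ± 4.15 TPM in VHD animals (SD, n = 4 each), a difference of 0.80 (limma adjusted p = 0.0425). FAM110A was at 25.3 ± 2.75 against 9.64 ± 1.31 TPM, a difference of 1.31 with the same adjusted p, and SAT2, a polyamine acetyltransferase relative, at 194 ± 25.5 against 343 ± 47.1 TPM, a difference of -0.81. From controls, DUSP7 and SAT2 differed by 0.22 and -0.27, and neither passed. DARC, PPIL3 and SNAP23 differed from VHD animals by 1.59, -0.57 and -0.71 (limma adjusted p = 0.0425, 0.0425 and 0.0428). They and FAM110A had been picked for small p-values against controls with the same HD animals, so this is no separate evidence. All the calls of this paragraph are among those lost with TMM rescaling or without any single HD animal.

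By list, 19 of 33 glutamatergic genes and 6 of 11 GABAergic genes of the study passed as higher in HD than in VHD animals, against 12.5% of all genes, with medians of 1.01 and 1.20. The study had chosen both lists on these animals. Synaptic vesicle genes passed in 10 of 27. Ribosomal proteins passed as lower in 42 of 47 of the large subunit and 28 of 33 of the small subunit, against 2.92% of all genes, with medians of -0.77 and -0.83. None of these calls was left with TMM rescaling, with genes of at least 1 TPM, without any 1 of the HD animals, or without VHD animal 3 or 4, where no gene passed. Against controls the same 4 study and ribosomal lists had medians of 0.39, 0.55, -0.26 and -0.32, smaller and in the same direction, with no gene passing. For VHD animals against the same controls the medians were -0.53, -0.68, 0.50 and 0.53, so the VHD animals contributed more of each distance. The medium spiny neuron markers had a median of 1.15 against VHD animals, with 0 of 14 passing. The contrasts of HD animals with controls and with VHD animals use the same HD animals, so they are not independent.

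**Figure D5:**
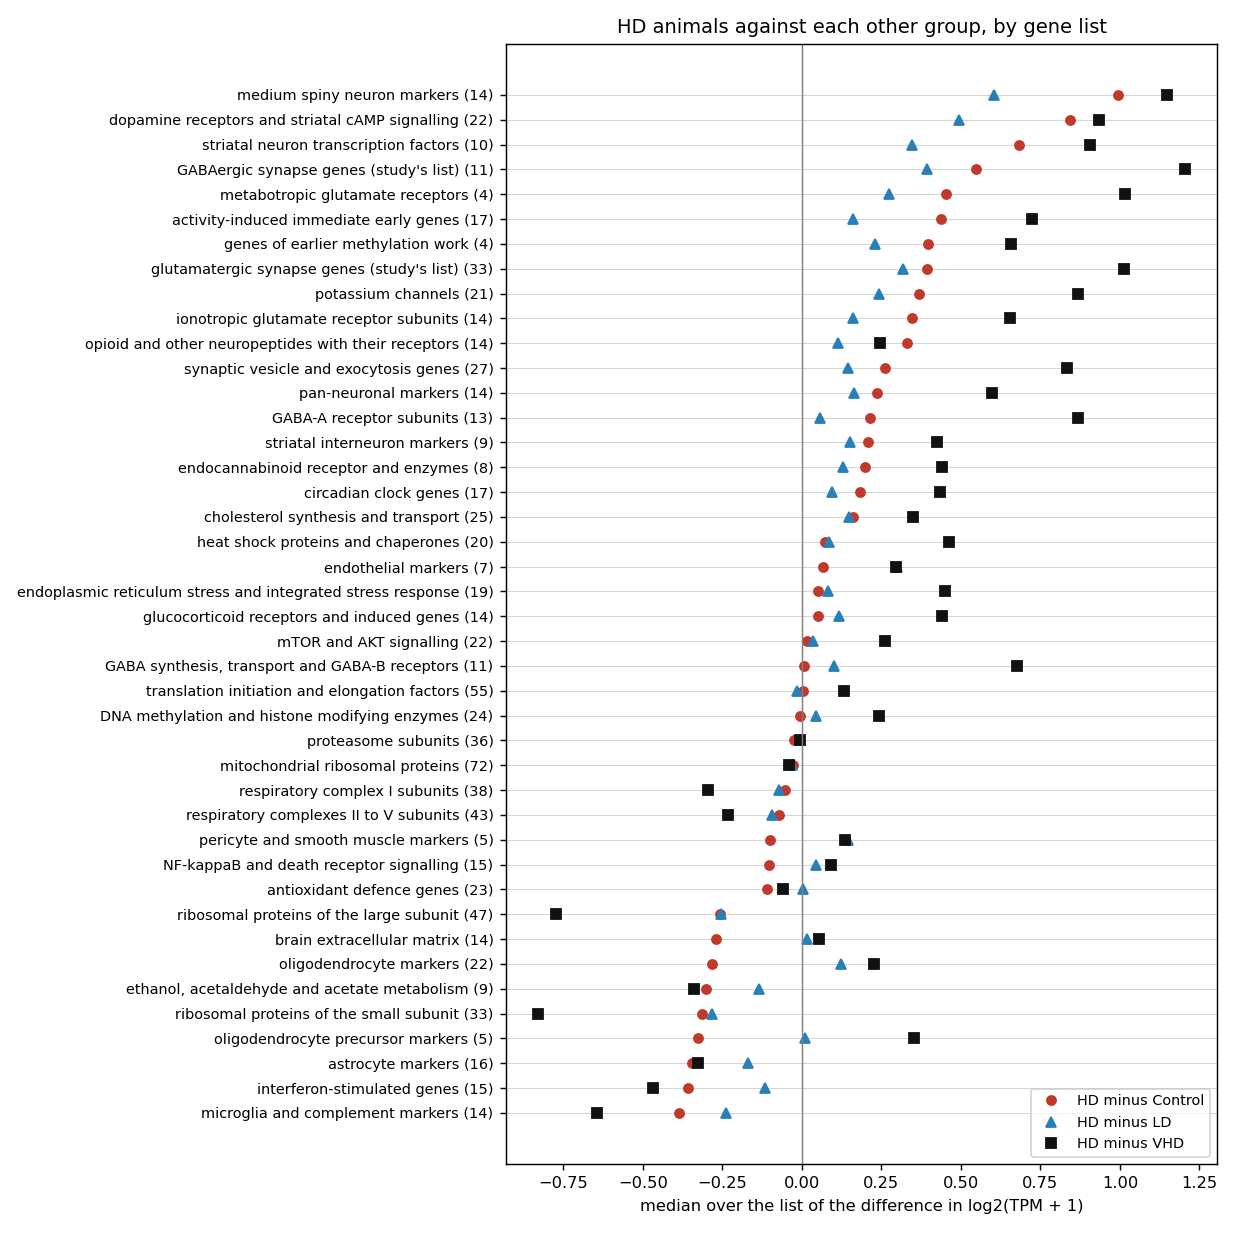
Median difference in log2(TPM + 1) of the HD animals from controls (circles), LD animals (triangles) and VHD animals (squares) for each gene list with at least 4 genes tested. The distance is greatest from VHD animals for the synaptic lists (1.01 for the glutamatergic genes) and the ribosomal proteins (-0.83 for the small subunit).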

How the data were processed

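The authors aligned reads to the MacaM assembly with STAR 2.5.2b, counted them per gene with HTSeq 0.6.1p1 and deposited normalised values that sum to 1e+06 in each animal, taken here as TPM; the table holds no read counts. The sources differ on whether libraries were stranded and paired-end. The read depth behind these values is unknown, so no interval from counts is given. The file held 17208 gene symbols, 27 of them turned into dates by a spreadsheet, and 15246 symbols matched RefSeq. Values were taken as log2(TPM + 1), and the 9197 genes averaging 10 TPM or more were fitted with limma 3.58.1 in R 4.3.3 (4 groups, all 24 animals, 1 shared spread with a mean trend, 20 residual degrees of freedom). Genes of 1 to 10 TPM came from the same fit over 13637 genes. Library measures were compared with exact permutation tests.

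Named genes were the 10 with the smallest p in each direction, 2 per list, those of earlier methylation work with GRM5, GRM7 and GRIA3, and 3 each for the cohort and VHD contrasts. Other genes beside them, such as members of a list given for its range, were chosen after their values were seen. The members and all 45 lists were chosen with earlier results of these data known. Replicate numbers are in accession order. The scripts were tested on simulated data. Alternatives covered pseudocounts of 0.1 and 8, filters, TMM rescaling (30% of ratios and 5% of levels trimmed at each end), array weights, cohort, marker levels and leaving out each animal. Using the astrocyte marker level, leaving out controls 6 and 8 together, and omitting animals from the VHD contrast or giving it a cohort term were chosen after seeing the data.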

Additional observations from a re-analysis of the deposited data

Results flagged for a closer look

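One animal stood apart from the rest of its group in 10 of 234 groups of values examined for the genes named (Dixon's test at 95%, which chance alone flags in about 1 of 20 groups). Among HD animals, HD animal 3 was highest for JAKMIP1, at 246 TPM with the other 3 between 179 and 188 TPM, and for KIRREL3, at 75.2 TPM with the others between 49.6 and 50.9 TPM. HD animal 1 was highest for UNC13C, at 62.3 TPM with the others between 30.4 and 35.3 TPM, and lowest for CSNK1D, at 117 TPM with the others between 138 and 142 TPM.

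Among controls, control 6 was highest for PPP1R14A, at 734 TPM with the others between 136 and 337 TPM, for ASPA at 51.6 TPM and for LRP5 at 16.4 TPM with the others between 8.07 and 10.9 TPM. PPP1R14A and ASPA are oligodendrocyte genes, and control 6 also had the highest summed oligodendrocyte markers. Control 2 was highest for SLC17A7, at 348 TPM with the others between 0.897 and 119 TPM. Control 7 was highest for EIF1AD, at 12.6 TPM with the others between 10.7 and 11.4 TPM, and control 8 was lowest for PPID, at 30.4 TPM with the others between 39.8 and 47.9 TPM.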

How the results depend on the processing

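The count of genes passing an adjusted p between HD animals and controls stayed at 0 under all alternatives run. Higher and lower genes at an unadjusted p under 0.05 numbered 103 and 48 among genes of at least 100 TPM, 691 and 278 with TMM rescaling, 480 and 841 with array weights (smallest limma adjusted p 0.0575), 48 and 112 with cohort as a covariate, and 76 and 131 in cohorts 5 and 7a alone. They numbered 140 and 221, 52 and 89, and 20 and 30 with oligodendrocyte, medium spiny neuron and astrocyte markers as a covariate, and 82 and 212 without controls 6 and 8. Lower genes numbered 961 with no filter and 755 from 1 TPM. Leaving out 1 animal gave 58 (without HD animal 3) to 536 (without control 1 or 3) higher and 104 (HD animal 3) to 545 (control 3) lower. The cause was not tested. The cohort difference gave 353 genes from 1 TPM. Against VHD animals, calls were 0 and 0 with TMM rescaling and from 1 TPM, 1915 and 410 with a cohort term, and between 0 and 3025 higher and 0 and 391 lower without 1 animal, the highest without VHD animal 2. The difference in genes at 1 TPM or more lay between -244 and -168.7 without 1 animal, and in 9 of 12 such fits its exact permutation p was 0.05 or more.

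The named genes that turned direction were not at an unadjusted p under 0.05 with all animals. With the medium spiny neuron markers as a covariate NBEA was at -0.0087, PER1 -0.047, ESAM -0.027, LAMP5 -0.27, RSPH1 -0.088, ARHGEF7 -0.085, GRM5 -0.071 and KLK8 -0.11. With the astrocyte markers PER1 was at -0.059, CD3D -0.13, LAMP5 -0.16, RSPH1 -0.11, GRM5 -0.00010, NUDT14 -0.056 and KLK8 -0.27. Array weights gave ESAM -0.025, LAMP5 -0.0081 and ARHGEF7 -0.034, cohorts 5 and 7a alone gave SLC17A7 -0.43 and KLK8 -0.058, and a cohort term gave ABO 0.0024. ARHGEF7 was at -0.071 without controls 6 and 8. Leaving out 1 animal gave SLC17A7 -0.023 (HD animal 4) to 2.19 (HD animal 3), AQP1 -0.50 (HD animal 2) to 0.16 (HD animal 4), with 0.12 without HD animal 1 and 0.021 without control 4, and ABO -0.28 (HD animal 4) to 0.0086 (HD animal 1), with 0.0025 without HD animal 2. No paired analysis was run, since the groups were different, unrelated animals with 1 library each. Read depth is unknown, so its limits could not be given.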
